A study of Mus musculus with 10 samples.

Results

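The 5 tumours described here are the spontaneous lymphomas of the wild-type (+/+) mice in a series of 10 lymphomas, and they were chosen by the genotype label alone. The other 5 tumours came from +/L mice, in which 1 copy of the C/EBPβ gene makes only LIP, the short inhibitory form of this transcription factor, and no comparison of the genotypes is made. By the labels, the +/+ mice were mouse 17 (female, 20 months old), mouse 19 (female, 23 months), mouse 40 (female, 26 months), mouse 101 (male, 26.5 months) and mouse 11 (male, 29 months). All were kept without treatment in a pathogen-free facility until a lymphoma could be felt, part of each tumour went to histology, and the rest was frozen. Total RNA of each tumour was labelled with Cy3 and measured on 1 single-colour Agilent array. The strain and the organ each tumour came from are not given in the sources used here, and no transgene or Cre is named. Precision is limited by there being 5 arrays.

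Most spontaneous lymphomas of old mice arise from B cells. A B cell joins variable, diversity and joining segments of the heavy-chain locus, and variable and joining segments of a light-chain locus. The offspring of 1 such cell mostly carry the same joined segments. In the germinal centre, a B cell can exchange the mu constant region of its heavy chain for a gamma, epsilon or alpha one, which is called class switching. A tumour piece also holds T cells, macrophages, vessels and connective tissue, whose transcripts are measured along with those of the lymphoma cells.

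Values are log2 processed signals relative to the 75th percentile of the same array, so that 0 is the brightness of that percentile and a difference of 1 is 2-fold. The 5 arrays had 52.9% to 66.7% of their spots well above background, lowest in mouse 101 and highest in mouse 17, and their 75th percentiles lay between 199 and 340 signal units. One array did not match its sex label. Xist, the transcript that silences an X chromosome in females, was at 3.44 in mouse 11, which is labelled male, and at 3.46, 3.49 and 3.08 in the females 17, 19 and 40. In mouse 101 it was not well above background. The Y-linked genes Eif2s3y (1.18), Ddx3y (0.08) and Kdm5d (-2.06) were well above background in mouse 101 only. The tumour labelled mouse 11 is also the one that stands furthest from the others below, and the counts that move most without it are given both ways.

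Short stretches of the probes on which the immunoglobulin results and the reading of the brightest genes rest are printed here, because these names alone do not say what was measured. Each is 30 bases long and in lower case, 5′ to 3′ as the files give the 60-base probe, with positions in build mm9 for the whole probe. The heavy-chain and lambda probes are on the minus strand, and bases 1 to 30 are shown.
Mu constant region, chr12:114659100-114659159: gaccgtggacaagtccactggtaaacccac
Delta constant region, chr12:114654277-114654336: tgtgctggcctcagaactgaacctcaacca
X87228, chr12:114567137-114567196: tggtaaatgatcccagtgtccttggagccc
Gamma 2c constant region, chr12:114525673-114525732: cttcatgtacagcaagctcagagtacaaaa
Epsilon constant region, chr12:114510080-114510139: aaagcgagaagaatgtcaatgtgacgtgga
Igh, 3′ of epsilon, chr12:114496985-114497044: tcgggtaaacccaccaatgtcagcgtgtct
Lambda, named Iglv1, chr16:19061826-19061885: acactgtggagaagagtttgtcccgtgctg
Of the Lars2 and Ptprz1 probes, on the plus strand, bases 31 to 60 are shown.
Lars2, chr9:123371116-123371175: cttcctatcattgtgaagcagaattcacca
Ptprz1, brightest probe, chr6:22951569-22951628: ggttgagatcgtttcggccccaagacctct
Ptprz1, another probe, chr6:22951891-22951950: aagcttgtgtattctgaggacattttctcg

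The brightest signals belonged to ribosomal RNA and ribosomal protein genes, with histone, MHC, iron-storage and lysosomal genes among them. Brightness orders probes within these arrays and does not give copies of mRNA, since probes bind unequally. Of the 100 brightest of the 14340 genes and transcripts whose brightest probe was well above background on all 5 arrays, 76 were among the 100 brightest on every single array. Ribosomal protein genes named Rpl or Rps with a number made up 34 of the 100, out of 80 such genes measured on all 5 arrays. Rplp0, Rplp1 and Rplp2 were also among the 100 and are not in this count. The 100 together held 29.7% to 35.8% of the summed signal of an array. Between tumours they varied about as much as other genes did, with a median SD of 0.36 against 0.38 over the 14340. In the 5 +/L tumours, 92 of the 100 were again among the 100 brightest.

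The brightest named gene was Lars2, the mitochondrial leucyl-tRNA synthetase, at 10.28, 10.47, 10.58, 10.96 and 11.22 in mice 11, 17, 19, 40 and 101. Its probe is also listed in the files for a record that RefSeq names Rn28s1, the 28S ribosomal RNA, so Lars2 mRNA and that RNA cannot be told apart by it. The probe named Rn18s, the 18S ribosomal RNA, was as bright, at 10.54, 10.39, 10.51, 10.88 and 11.21. Ptprz1, a receptor tyrosine phosphatase known from glia, followed at 10.01, 10.05, 10.12, 10.51 and 10.83. The other Ptprz1 probe printed above lies close by and passed the background flag on 2 of the 5 arrays, between -7.66 and -3.14. The brightest probe alone thus does not give a level of Ptprz1 mRNA.

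Grn, the lysosomal growth factor progranulin, ranged from 9.84 to 10.71, and Fth1, the heavy chain of the iron store ferritin, from 9.02 to 9.84. C3, the central complement component, lay between 9.23 and 9.44 and had the smallest SD (0.11) of the 20 brightest named genes, although a dimmer C3 probe read -0.55 to 0.00. Mfge8, which bridges dying cells to phagocytes and is made by follicular dendritic cells and macrophages, lay between 8.98 and 9.46. The histone gene H2ac1 ranged from 8.73 in mouse 17 to 10.06 in mouse 101. Lrrc58 (9.14 to 10.36) and Cox17 (9.26 to 10.47), a copper chaperone of cytochrome oxidase, also rest on 1 bright probe each, since their other probes were far dimmer. The rest of the 20 were Fau, whose product joins a ubiquitin-like protein to a ribosomal one, and the ribosomal protein genes Rps18, Rplp1, Rpl37a, Rpl7a, Rps20, Rps16, Rplp2, Rps14, Rps2 and Rplp0.

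**Figure D1:**
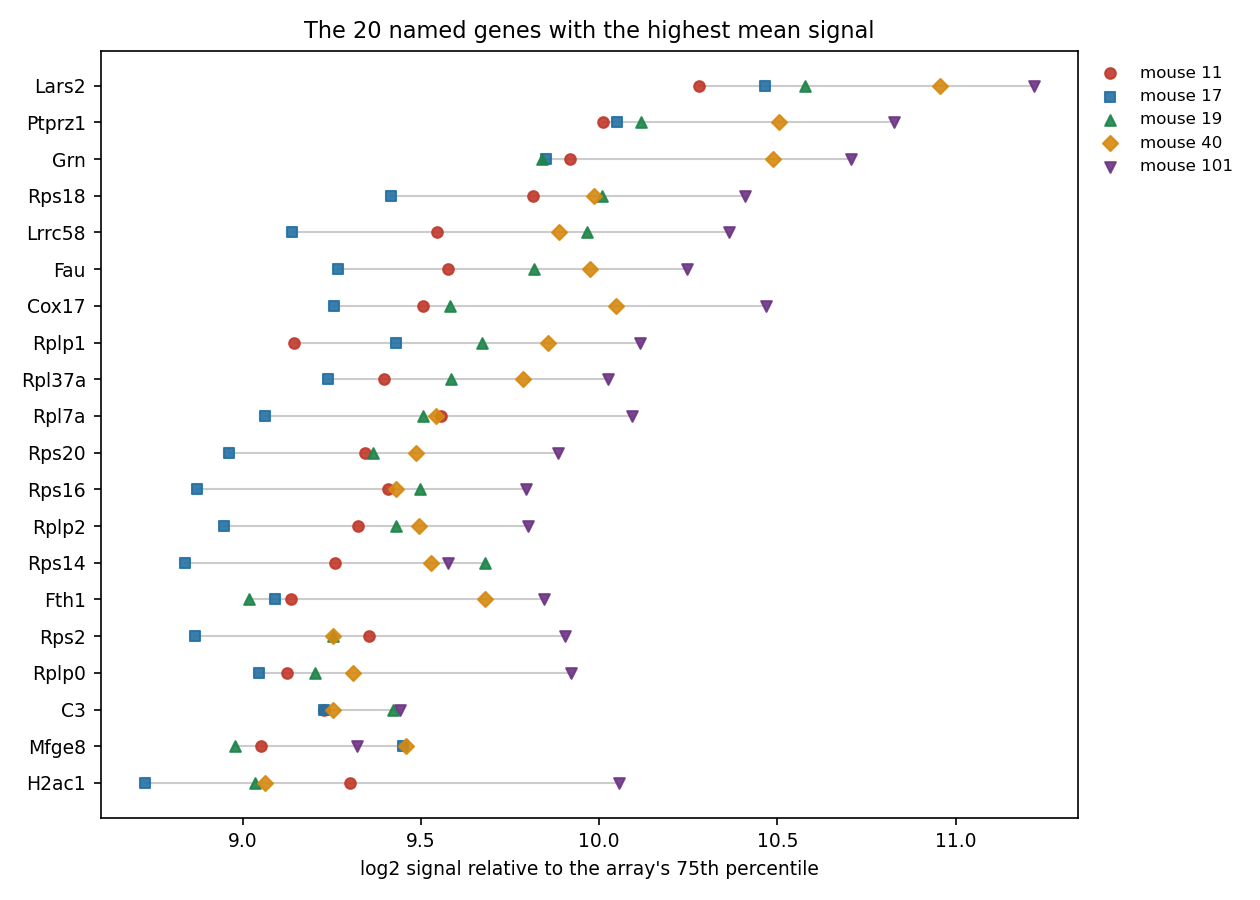
Log2 signal relative to the 75th percentile of the array (horizontal axis) of the 20 named genes with the highest mean, 1 symbol per tumour; grey lines join the lowest and highest tumour. Lars2 lies between 10.28 and 11.22, and mouse 101 is highest for 18 of the 20 genes under this scaling but for 7 after normexp correction and quantile normalization.

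Mouse 101 read highest for 85 of the 100 brightest genes, and mouse 17 lowest for 76. These orders moved with the normalization. After normexp background correction and quantile normalization, mouse 101 was highest for 27 of the 100 and mouse 17 lowest for 45. No difference between tumours in the brightest genes is therefore drawn from them.

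At the other end, 8815 of 27729 genes and transcripts (31.8%) were not well above background on any of the 5 arrays, and 14368 (51.8%) had a probe well above background on all 5. With the less strict flag for positive and significant spots, 2984 failed it on all 5. Of the 8815, 6261 also failed the flag in all 5 +/L tumours. The rest were measured on 1 (1672), 2 (927), 3 (899) or 4 (1048) arrays. Sensory receptor families made up a large group: 716 of 910 olfactory receptor genes (78.7%), 116 of 135 vomeronasal receptor genes (85.9%) and 12 of 13 bitter taste receptor genes failed the flag on every array, as did 21 of 28 beta defensin genes and 20 of 45 keratin genes. By contrast, 0 of 53 Rpl genes and 0 of 45 NADH dehydrogenase subunit genes were missing on all arrays, and 1 of 50 proteasome subunit genes was.

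Some genes that define precursor lymphocytes or other cell types failed the flag on every array, while other members of their lists passed it. Rag1 and Rag2, the recombinase of precursor lymphocytes, and Ptcra, the surrogate receptor chain of thymocytes, failed the flag on all 5. So did the scavenger receptor Cd163 and the complement receptor Vsig4 of tissue macrophages, but the other 14 of 16 macrophage genes passed it on every array. Of 13 erythroid genes, 7 passed on every array and 4 on none, Epb42 and Rhag among the latter. Of 9 fat genes, 3 passed on every array, 5 on some and 1, Lep, on none. Of 9 liver genes, 1 passed on every array, 4 on some and 4 on none. Haemoglobin transcripts were bright: Hbb-bt was at 6.02, 5.83, 4.20, 6.08 and 5.38 in mice 11, 17, 19, 40 and 101. The NF-kB subunit Rel was also not well above background on any array. These readings are limits of single probes and do not show that a transcript was missing.

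The 14340 genes had a median SD of 0.38 over the 5 tumours, and 989 of them (6.9%) had an SD of at least 1, that is a typical spread of at least 2-fold. For 1705 genes the brightest and the dimmest tumour differed by at least 4-fold, and for 217 by at least 16-fold. The SD depends on the background correction: 435 genes had an SD of at least 1 after normexp correction with quantile normalization, and 341 in the authors' deposited table. Fewer cells of a type and less RNA per cell cannot be told apart in these bulk samples. No test is given, because each tumour was measured once and the tumours form 1 group.

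Immunoglobulin transcripts had a higher median SD than any gene list or family examined. Of the 97 that were measured on all 5 arrays, 91 (93.8%) had an SD of at least 1, against 6.30% of the 14243 other genes, and their median SD was 2.87 against 0.37. They made up 74 of the 100 most variable genes. The heavy-chain locus gave 42 of the 97 (median SD 3.0), the kappa locus 47 (2.76) and the lambda locus 2 (1.39). The grouping was made after these values were seen.

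**Figure D2:**
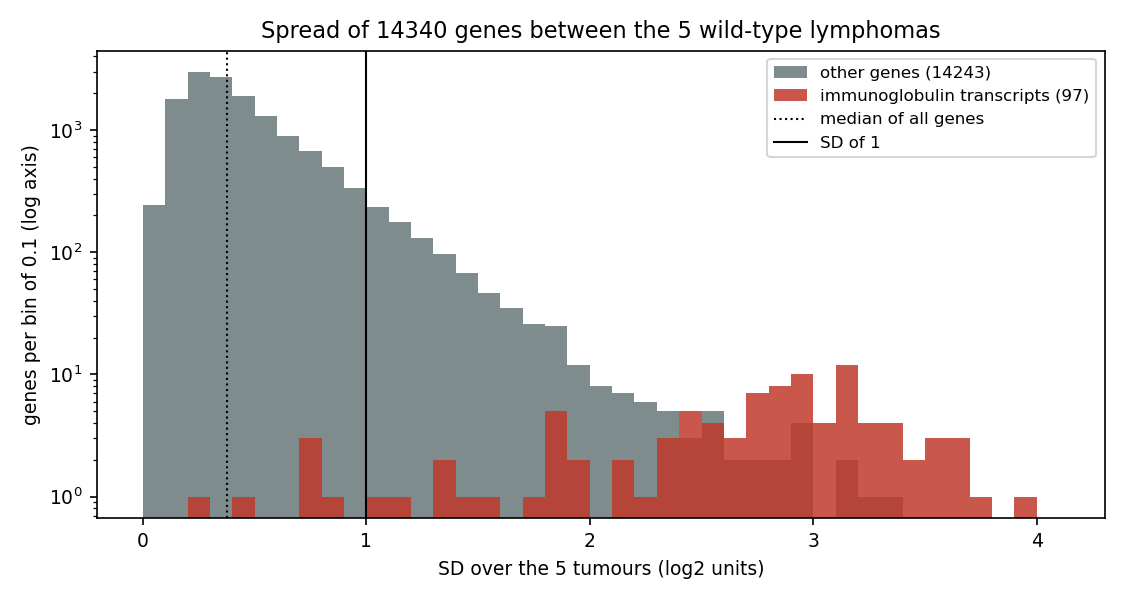
Number of genes (vertical log axis) in each bin of the SD over the 5 tumours (horizontal axis, log2 units), with immunoglobulin transcripts in red and the other genes in grey. The median of all genes is 0.38 and most of the 97 immunoglobulin transcripts lie to the right of an SD of 1.

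The tumours differed in a shared direction. The median over the 97 transcripts was -2.69 in mouse 11, 3.68 in mouse 17, 1.96 in mouse 19, 4.36 in mouse 40 and 0.70 in mouse 101. Mouse 11 was lowest for 83 of the 97, against 24.6% of all genes, and mouse 40 highest for 70, against 17.0%. Without mouse 11, 49 of the 100 most variable genes were immunoglobulin transcripts. Variable-segment probes share sequence and can catch related segments, so their count is not a count of separate genes.

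Heavy-chain constant-region probes did not all follow this order. The mu probe was at 3.30 in mouse 11 and at 9.10, 7.79, 8.98 and 7.84 in mice 17, 19, 40 and 101. The delta probe was likewise low in mouse 11, at -3.92, against 4.11, 2.87, 2.86 and 1.72. Naive B cells carry these 2 classes, and both were lowest in mouse 11.
The X87228 probe lies between delta and gamma 2c, where the mouse genome holds other gamma constant regions, and the files do not give its class. It was bright in mice 11 (9.71) and 17 (9.64), lower in mouse 40 (7.46) and lower again in mice 19 (3.51) and 101 (3.23), and its 2 other probes had the same order. The gamma 2c probe was highest in mouse 40 at 7.81, followed by 4.96 in mouse 17, 2.85 in mouse 19, 2.66 in mouse 101 and -1.88 in mouse 11. The epsilon probe, for the heavy chain of IgE, was highest in mouse 11 at 4.21, with 1.73 in mouse 17, 0.99 in mouse 40, -2.57 in mouse 101 and -3.26 in mouse 19.
The Igh probe 3′ of epsilon, where the alpha constant region lies in the mouse genome, was highest in mice 19 (10.08) and 101 (10.03), followed by mouse 40 (9.38), mouse 17 (8.09) and mouse 11 (5.50). Which tumour was brightest therefore changed from class to class, with mouse 11 among the highest for X87228 and epsilon and lowest for mu, delta, gamma 2c and the 3′ probe.

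**Figure D3:**
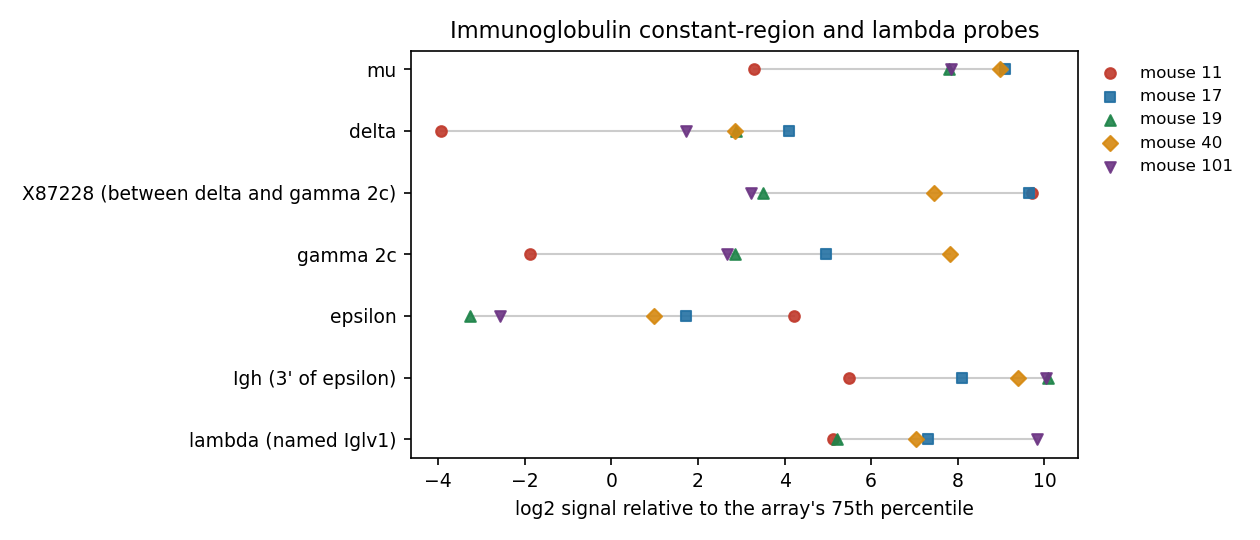
Log2 signal relative to the 75th percentile of the array (horizontal axis) of 7 immunoglobulin probes whose sequences are given above, 1 symbol per tumour. Mouse 11 is lowest for mu (3.30) and highest for epsilon (4.21), and mouse 101 is highest for the lambda probe named Iglv1 (9.83).

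Single light-chain probes stood out in single tumours. The lambda probe printed above was at 9.83 in mouse 101 and at 5.12, 7.31, 5.21 and 7.03 in mice 11, 17, 19 and 40. The files name it Iglv1, but it lies 3′ of the joining segment and apart from the probes of the variable segment, on the side of the constant regions. The probe of the lambda constant region IGLC3 did not share this order, being highest in mouse 17 at 7.31 and lowest in mouse 101 at 5.42. Of the 4 probes that lie in the variable segment Iglv1 itself, 2 were highest in mouse 101, at 5.23 and 6.22, and 2 were lowest there, at 0.64 and 0.47, and highest in mouse 17, at 4.32 and 4.36. The probes of Iglv1 thus did not give the tumours 1 order. The kappa segment IGKV1-133 was at 6.68 in mouse 17 and between -3.29 and 4.27 in the others, while IGKV8-16 was at 3.97 in mouse 19 and between -5.53 and 0.24 in the others.
Counted over all 184 immunoglobulin probes, those at least 2-fold above every other tumour numbered 65 in mouse 40, 13 in mouse 17, 5 in mouse 101, 3 in mouse 11 and 1 in mouse 19. Over the 14340 genes measured on all 5 arrays, such genes numbered 126, 136, 109, 144 and 107 in the same order. The counts of mice 11 and 19 were near these shares, and nothing is drawn from them. All 5 immunoglobulin probes counted for mouse 101 were among the 9 probes of the lambda locus. Of the 65 in mouse 40, 41 lay in the kappa locus and 23 in the heavy-chain locus, which have 84 and 89 probes.

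Genes that mark B cells as such were measured in all 5 tumours. All 18 listed B-cell genes were well above background on every array, 3 of them had an SD of at least 1, against 6.9% of all genes, and their median SD was 0.49, against 0.38. Cd79b, a signalling chain of the B-cell receptor, was at 7.18, 6.77, 6.74, 7.06 and 7.23 in mice 11, 17, 19, 40 and 101. Blnk, an adaptor below that receptor, ranged from 6.61 to 7.77 and the B-cell coactivator Pou2af1 from 6.66 to 8.25, both highest in mouse 11. Ms4a1, which encodes CD20, ranged from 4.83 to 6.27. The 3 with an SD of at least 1 were Cr2, the complement receptor CD21, which was at -4.54 in mouse 11 and between -1.41 and 0.33 elsewhere, Fcmr, the IgM Fc receptor, at 2.54 in mouse 11 against 4.46 to 5.90, and Bank1, at -0.98 in mouse 11 against 0.76 to 1.97. All 3 were thus lowest in mouse 11, as the mu and delta probes were.

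Germinal-centre genes had a larger median SD, of 1.02. A list score is the mean deviation of the members from their own means over the 5 tumours, and for the 9 measured members it was 1.35 in mouse 11, 0.90 in mouse 101, -0.06 in mouse 19, -0.85 in mouse 40 and -1.34 in mouse 17. Mice 11 and 101 were the upper pair for 8 of the 9, against 26.3% of all genes measured. Rgs13, a regulator of G-protein signalling in germinal-centre B cells, was at 2.76 and 2.63 in mice 11 and 101, 0.80 in mouse 19, -0.76 in mouse 40 and -4.14 in mouse 17. The transcription factor gene Mef2b was at 6.02, 1.31, 4.48, 2.82 and 5.97 in mice 11, 17, 19, 40 and 101. Another Mef2b probe varied less, with an SD of 0.44 against 2.05. Bcl6, the repressor that defines the germinal-centre state, varied over 4.35 to 5.69 and was again highest in mouse 11.

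Plasma-cell genes were measured in all tumours (11 of 11) and their score varied between 0.42 in mouse 17 and -0.46 in mouse 101. Jchain, which links IgM and IgA units, was bright throughout at 6.47, 6.73, 6.61, 6.32 and 5.68 in mice 11, 17, 19, 40 and 101, although the mu probe was low in mouse 11. Sdc1, the plasma-cell surface proteoglycan CD138, was highest in mouse 17 at 2.59 and lowest in mouse 101 at 0.30. Fkbp11, a folding enzyme of secretory cells, had the largest SD of the list (1.49), with 2.15 in mouse 17 and -1.08 in mouse 101.

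Cell-cycle and glycolysis genes were highest in mice 11 and 101. For 21 of 22 proliferation genes, mice 11 and 101 were the upper pair, and for 12 of 13 glycolysis genes, against 26.3% of all genes; both counts were the same after normexp correction with quantile normalization. Mki67, the marker of cycling cells, was at 6.40 and 5.87 in mice 11 and 101 and at 4.60, 4.35 and 4.16 in mice 17, 19 and 40. Plk1, a mitotic kinase, was at 4.63 and 5.09 in that pair and at 3.32, 3.09 and 3.12 in the other three. Both genes were higher in mice 11 and 101 than in any of the other three. Bub1, a spindle checkpoint kinase, was the exception, at 2.84 to 2.90 in mice 11 and 101 and 2.59 to 3.31 in the others. Tpi1, a glycolytic isomerase, was at 6.76 and 6.80 in the pair and between 4.56 and 5.05 in the others, and Ldha, which makes lactate, at 7.21 and 7.41 against 5.71 to 6.23. The proliferation score was 0.89 and 0.70 in mice 11 and 101 and between -0.59 and -0.45 in the others. The glycolysis score was 0.64 and 0.81 in that pair and between -0.72 and -0.33 in the others, so the order within the pair was not the same for the lists.

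Oncogenes and tumour suppressors known from lymphoma had median SDs of 0.55 and 0.50, against 0.78 for the proliferation genes, 0.75 for the glycolysis genes and 0.38 over all genes. Of 16 measured oncogenes, 1 had an SD of at least 1, a share near the 6.9% of all genes: Myb, a transcription factor of immature blood cells, at 1.95, -1.10, 0.59, -0.67 and 0.80 in mice 11, 17, 19, 40 and 101. Myc ranged from 1.29 to 2.44, Bcl2, which blocks cell death, from 1.06 to 2.09, and Ccnd2, a cyclin of the G1 phase, from 4.55 to 5.86. Trp53, which encodes p53, ranged from 2.56 in mouse 101 to 4.47 in mouse 40, and its target Cdkn1a from -0.10 in mouse 17 to 2.25 in mouse 101. The tumour with most Trp53 signal was thus not the one with most Cdkn1a.

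T-cell genes were highest in mouse 19. All 17 measured T-cell genes had their highest value there, against 14.5% of all genes, also after normexp correction with quantile normalization, and mice 19 and 101 were the upper pair for 15 of them, against 10.8% of all genes. Cd3d, a chain of the T-cell receptor complex, was at 6.0 in mouse 19, 5.29 in mouse 101, 4.65 in mouse 40, 3.70 in mouse 17 and 3.50 in mouse 11. Cd8b1, a co-receptor chain of cytotoxic T cells, was at 7.10 in mouse 19 and at 3.69, 2.64, 5.49 and 5.45 in mice 11, 17, 40 and 101. Tcf7 and Lef1, related transcription factors of T cells, were at 3.11 and 2.75 in mouse 19 and no higher than 1.11 and 0.81 elsewhere. Both were picked for their gap in mouse 19 and are not in the T-cell list, so their high readings there were set by the choice.
Cytotoxic genes were high in mice 19 and 101, the upper pair for 9 of 13, against the same 10.8%. Prf1, which encodes the pore-forming perforin, was at 2.88 and 3.11 in these and at 0.71, 0.64 and 0.92 in mice 11, 17 and 40. Ifng was highest in mouse 101 at 3.39 and lowest in mouse 40 at -0.11. Gzmm, a granzyme, had one of the largest SDs (2.45), with 3.68 in mouse 19 and -1.95 and -1.91 in mice 11 and 17. T-cell genes were well above background in all 5 tumours, and how much of this RNA came from tumour cells or from T cells beside them was not tested.

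Pancreatic acinar genes also differed in mouse 19. Of the 9 on the arrays, 3 were well above background on all arrays and all 3 were highest there, against 14.5% of all genes. Cpa1, a pancreatic carboxypeptidase, was at 0.39 in mouse 19 and -2.35 in mouse 101 and not well above background in mice 11, 17 and 40. The same held for Cpb1, at -0.21 in mouse 19 and -2.38 in mouse 101. The part of this tissue in the other values of mouse 19 was not tested.

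Genes of connective tissue were high in mice 17 and 40, and those of vessels were low in mice 11 and 101. Mice 17 and 40 were the upper pair for 9 of 10 fibroblast and collagen genes and for 5 of 9 endothelial genes, against 14.6% of all genes. Mice 11 and 101 were the lower pair for 6 of the 10 and for 8 of the 9, against 2007 of the 14340 genes. The endothelial score was 0.96 in mouse 40, 0.44 in mouse 17 and 0.33 in mouse 19, and -0.86 in both mice 11 and 101. Col3a1, a fibrillar collagen, was at -0.99 and 0.23 in mice 11 and 101, 1.70 in mouse 19, and 2.42 and 2.87 in mice 17 and 40. Lum, a collagen-binding proteoglycan, ranged from -3.66 in mouse 11 to 2.33 in mouse 40. Egfl7, secreted by endothelium, was at 2.09 and 1.82 in mice 11 and 101 and at 4.25, 2.87 and 4.02 in mice 17, 19 and 40. The tumours that were low here were the ones high in cell-cycle genes.

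Genes of lymphoid stroma followed this order only in part. Their score was -0.60, 0.31, 0.29, -0.02 and 0.02 in mice 11, 17, 19, 40 and 101. After normexp correction with quantile normalization it was 0.17 in mouse 40 and -0.24 in mouse 101. Of 9 measured on all 5 arrays, mice 17 and 40 were the upper pair for 3, against 14.6% of all genes. Mice 11 and 101 were the lower pair for 4, against 2007 of the 14340 genes, and the upper pair for 3, against 26.3%. Cxcl12, which holds lymphocytes in their niches, is among the 25 genes named for their SD. It was at 5.47 in mouse 17, 4.12 in mouse 40, 3.32 in mouse 19, 1.29 in mouse 101 and -0.36 in mouse 11. Ccl21a, which guides T cells into lymphoid tissue, was at 3.15 in mouse 11 and 4.86 in mouse 101, and at 6.67, 6.85 and 7.30 in mice 17, 19 and 40. Cxcl13, which guides B cells into follicles, had another order, highest in mouse 101 at 4.76 and lowest in mouse 19 at 2.40. Nkx2-3, a homeobox gene of spleen and gut stroma, was at -0.25, -0.90 and -1.26 in mice 19, 101 and 11 and at -4.14 and -4.73 in mice 17 and 40. The organs are not given in the sources used here, and their part in these differences was not tested. Glycam1, an adhesion ligand of the high endothelial venules of lymph nodes, was at 5.45 in mouse 40, 2.99 in mouse 19, 1.33 in mouse 17, 0.36 in mouse 11 and -0.60 in mouse 101.

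Macrophage genes gave 2 patterns. The complement genes C1qa, C1qb and C1qc, with lysozyme (Lyz2) and Apoe, were bright and even, with SDs of 0.26 to 0.42. Marco, a scavenger receptor of marginal-zone and other tissue macrophages, had an SD of 2.66, at 5.18, 5.11 and 3.65 in mice 40, 101 and 19, 1.93 in mouse 11 and -1.18 in mouse 17. Adgre1, which encodes F4/80, was at 5.03 and 4.08 in mice 40 and 17, 2.33 in mouse 19 and 1.16 and 0.87 in mice 11 and 101. Hmox1, which breaks down haem, was at -0.62 in mouse 19 and between 2.83 and 3.87 in the others.
Mice 40 and 17 were the upper pair for 3 of 4 neutrophil genes measured on all 5 arrays, against 14.6% of all genes. The other was highest in mouse 11. S100a9, a calprotectin subunit also named for its SD, was at 3.82 and 2.65 in mice 40 and 17. It was at 0.74 in mouse 19 and -1.45 and -1.57 in mice 101 and 11. Of 13 neutrophil genes on the arrays, 4 were well above background on all 5, so most of this list is dim.

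Some fat genes stood out in mouse 40. Of the 3 listed fat genes measured on all 5 arrays, 2 were highest there, against 17.0% of all genes, and 1 in mouse 17. Cfd, an adipocyte serine protease also called adipsin, was at 4.17 there, -0.74 in mouse 19 and no higher than -4.36 in the other three. Adiponectin (Adipoq) was at 0.73 against -4.40 to -2.12, the lipogenic gene Thrsp at 0.78 against -4.51 to -2.30, and Gpd1, which makes glycerol phosphate for fat, at 1.77 against -3.07 to -1.30. Ucp1, the uncoupling protein of brown fat, was well above background in mouse 40 alone, at -0.84, at least 11.1-fold over the other arrays' limits. Retn, which encodes resistin, was alike, at -1.53 and at least 6.88-fold. Adipoq, Thrsp and Gpd1 were among the genes picked for their gap in mouse 40, and Ucp1 and Retn among those picked as seen there alone. Their high readings in mouse 40 were thus set by the choice. The part of fat in other values of mouse 40 was not tested.

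**Figure D4:**
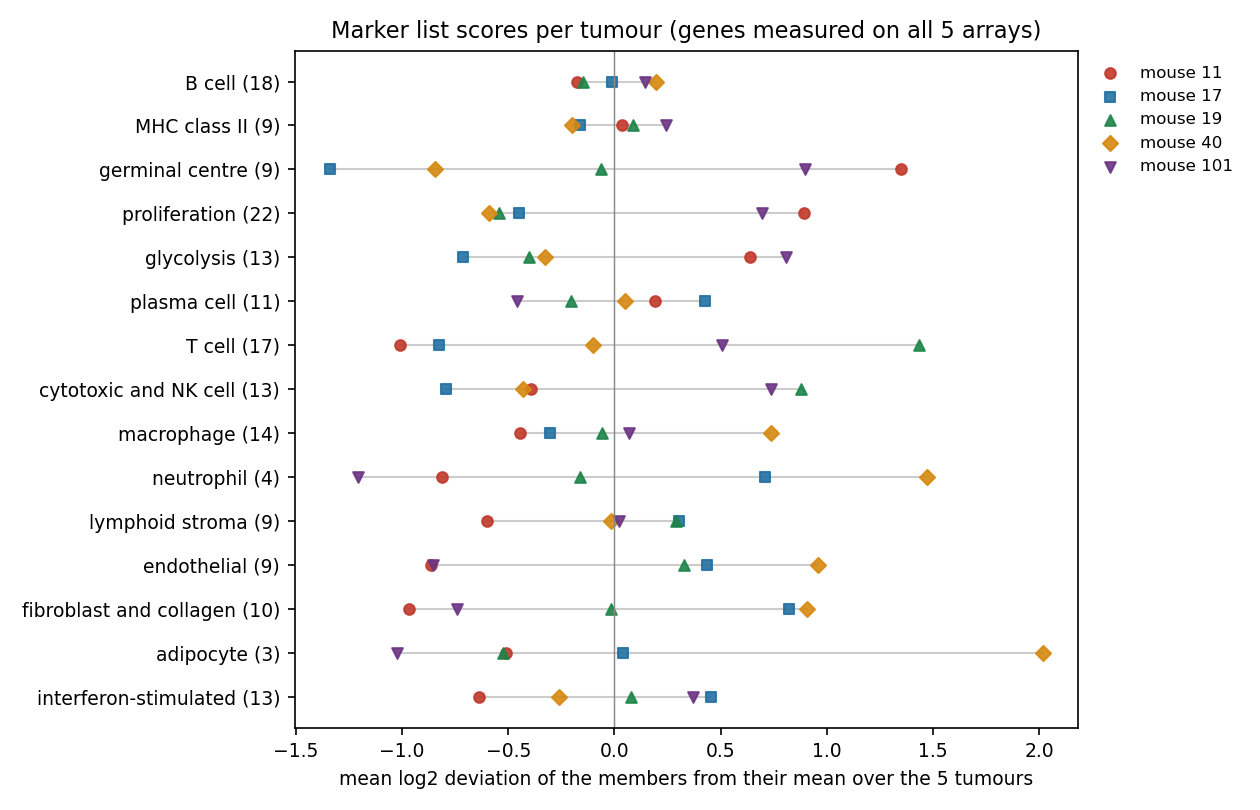
Score per tumour (horizontal axis, mean log2 deviation of the list's members from their mean over the 5 tumours) for 15 marker lists, with the number of members measured on all 5 arrays in brackets. Mice 11 and 101 lie right of the other three in the germinal-centre, proliferation and glycolysis lists and left of them in the endothelial and fibroblast lists, while mouse 19 is highest for T-cell genes (1.43) and mouse 40 for adipocyte genes (2.02).

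MHC class II genes were even. The 9 MHC class II genes had a median SD of 0.19 against 0.38 over all genes, none reached 1, and Cd74, the invariant chain, lay between 8.45 and 8.84. The 8 MHC class I genes had a median SD of 0.35, close to that over all genes, although H2-K1 and H2-D1 lay between 8.86 and 9.28. Which tumour was highest for either list changed with the normalization, so no order is given. Interferon-stimulated genes varied more (median SD 0.69). Of the 13, mouse 17 was highest for 7 and mouse 40 for 1, against 14.5% and 17.0% of all genes. Mouse 11 was lowest for 7, against 24.6%. Their score was -0.64, 0.45, 0.08, -0.26 and 0.37 in mice 11, 17, 19, 40 and 101. Single members had other orders. Ifit3 was at 0.36 in mouse 11 and at 3.40, 2.60, 3.59 and 2.22 in mice 17, 19, 40 and 101, while Cxcl9, a chemokine that interferon gamma induces, was highest in mouse 101 at 5.64 and lowest in mouse 40 at 2.85.

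Cebpb itself, the gene altered in the other genotype, was at 3.03, 2.38, 3.49, 3.64 and 4.58 in mice 11, 17, 19, 40 and 101. Its long and short proteins are made from the same mRNA, so the probe does not separate them. Hp, which encodes the acute-phase protein haptoglobin and is a known target of C/EBP factors, was at 5.43, 0.41, 4.53, 3.17 and 5.87. Both genes were lowest in mouse 17 and highest in mouse 101, while Saa3, another acute-phase gene, was lowest in mouse 17 at -5.04 and highest in mouse 101 at -0.27. Of the 4 acute-phase genes measured on all 5 arrays, 2 were lowest in mouse 17 and 2 in mouse 11. Mouse 101 was highest for all 4. After normexp correction with quantile normalization, mouse 101 was highest for 3 of the 4, and mouse 17 was lowest for 3 and mouse 11 for 1. Of 13 housekeeping genes, mouse 17 was lowest for 11 and mouse 101 highest for 6. These became 7 and 4 after the same normalization. Over all genes, mouse 17 was lowest for 29.3% and mouse 101 highest for 26.9%. A link of these genes to Cebpb was not tested. Cebpd was highest in mouse 40 at 5.11 and Cebpa ranged from 0.99 to 2.04.

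Outside the lists, the largest SD of a named gene was that of Mmp3, a matrix metalloproteinase (probe at chr9:7455751-7455810, mm9), with 4.01, 2.75, 2.67 and 4.27 in mice 11, 19, 40 and 101 and -3.69 in mouse 17. Mice 11, 19, 40 and 101 were close together, so that this spread rests on 1 tumour. Rflna, which encodes a filamin-binding protein, was at 3.95 in mouse 11, 1.78 in mouse 101, 0.86 in mouse 19, -2.60 in mouse 40 and -3.71 in mouse 17. Anxa10, an annexin (chr8:64536504-64536563, mm9), was at 3.27 in mouse 11 and between -4.50 and -2.40 in the others. Ncan, a brain proteoglycan, was highest in mouse 101 at 3.71 and lowest in mouse 17 at -3.44. Inmt, an indolamine methyltransferase, was at 3.29 in mouse 17 and -4.42 in mouse 11. Mouse 17 was lowest for 11 and mouse 11 for 9 of the 25 most variable named genes, against 29.3% and 24.6% of all genes.

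Other genes of the 25 named for their SD had further orders. Calca, which encodes calcitonin and a vasodilator peptide, was at 2.06 in mouse 101 and -4.45 and -4.49 in mice 17 and 40, but another Calca probe was not well above background on any array. Gpat2, a testis acyltransferase, was at 5.10, 3.54 and 4.68 in mice 11, 17 and 101 and at -0.72 and -0.25 in mice 19 and 40. Acod1, which makes itaconate in activated macrophages, was at 2.46 and 3.08 in mice 11 and 101 and no higher than -1.03 in the other three, with a second probe alike. Grb7, an adaptor of receptor kinases, was highest in the same pair, at 3.91 and 2.14. Chil1, a secreted chitinase-like protein, and Btnl1, a butyrophilin-like protein, were lowest in mouse 17 at -3.70 and -4.33 and highest in mouse 101 at 2.36 and 1.62. Alpl, an alkaline phosphatase, Cd163l1, a scavenger receptor, and Fxyd6, a regulator of the sodium pump, were lowest in mouse 11, at -5.02, -5.24 and -1.55. Thbs4, a matrix glycoprotein, was highest in mouse 40 at 0.96 and lowest in mouse 17 at -4.40.

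**Figure D5:**
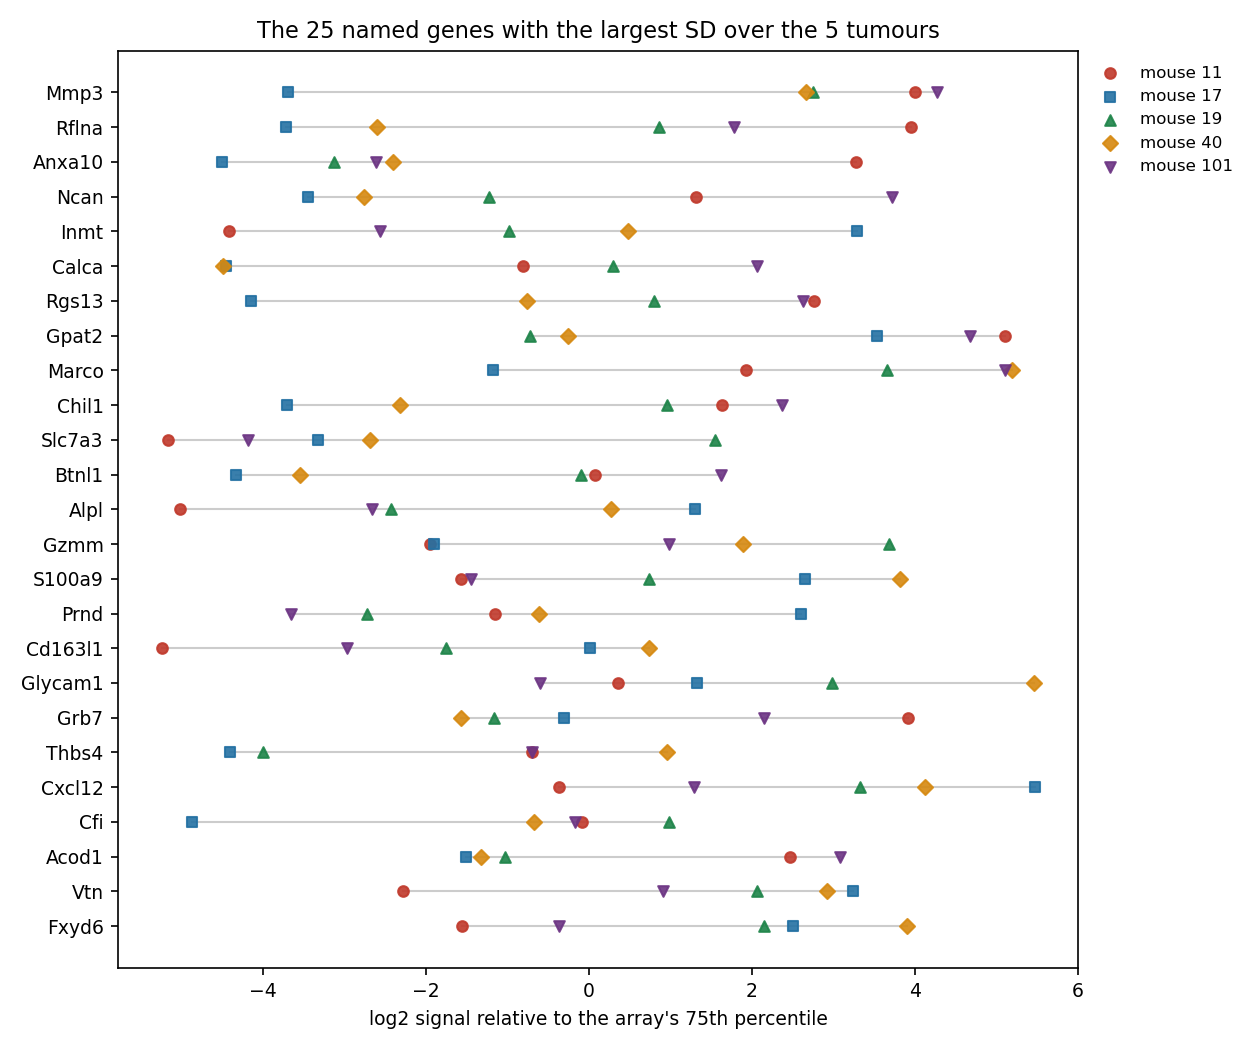
Log2 signal relative to the 75th percentile of the array (horizontal axis) of the 25 named genes with the largest SD, 1 symbol per tumour. Mmp3 and Cfi are apart in mouse 17 (-3.69 and -4.87), Anxa10 in mouse 11 (3.27) and Slc7a3 in mouse 19 (1.54).

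Each tumour also had genes of its own. In mouse 11, 144 genes were at least 2-fold above and 406 at least 2-fold below every other tumour, the latter against 36 to 96 in the others. The 406 came to 193 after normexp correction with quantile normalization and to 169 in the authors' deposited table. Besides Anxa10, the genes furthest above the next tumour there were Tanc2, a synaptic scaffold, at 0.71 against -2.23 or less, and Xlr, an X-linked lymphocyte gene, at 0.81 against -1.99 or less. Vtn, the adhesion protein vitronectin, was furthest below, at -2.28 against 0.91 or more.
In mouse 17 (136 above, 96 below), Prnd, a relative of the prion protein, was at 2.60 against -0.62 or less. Cfi, the protease that inactivates complement C3b, was at -4.87 against -0.67 or more, and Hoxd4, a homeobox gene, at -1.16 against -3.43 or less. On this array alone 1163 genes were well above background, against 61 to 172 for the other arrays, and it also had the largest share of spots above background.

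In mouse 19 (107 above, 88 below), Slc7a3, a transporter of basic amino acids, was at 1.54 against -2.68 or less, and Nsg2, known from neurons, at 2.76 against 0.67 or less. Adamdec1, a macrophage and dendritic-cell protease, was at -0.98 there and between 2.63 and 3.21 in the others. In mouse 40 (126 above, 94 below), Ica1l was at 2.99 against -0.39 or less, and Erdr1 at 4.77 against 6.90 or more. In mouse 101 (109 above, 36 below), Snhg5, a host transcript of small nucleolar RNAs, was at 6.16 against 1.14 to 3.41. Gprc5d, an orphan receptor known from plasma cells, was at -1.79 against -4.39 or less there, and St6galnac2, a sialyltransferase, at -0.81 against 1.45 or more. Ldhc, the lactate dehydrogenase of testis, was well above background in mouse 101 alone, at -0.53 and at least 24.2-fold over the limits of the other arrays. That array was the only one to miss 714 genes seen on the other four and had the smallest share of spots above background.

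A few bright genes hardly differed. Rbm5, a splicing regulator, was at 4.79, 4.77, 4.79, 4.74 and 4.76 in mice 11, 17, 19, 40 and 101, an SD of 0.02. That was the smallest SD among the named genes within the brightest 10% of the 14340. Txndc17, Adipor2, Slc39a7 and Sap30l followed with SDs of 0.05 to 0.07. In the +/L tumours Rbm5 had an SD of 0.63, so this evenness belongs to the 5 arrays.

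Pairs of tumours were 2-fold apart in 1155 to 3388 of the 14340 genes. The closest were mice 17 and 40, whose arrays shared a slide, and the furthest mice 11 and 40. After normexp correction with quantile normalization these 2 pairs differed in 465 and 1984 genes. The other pair on a shared slide, mice 19 and 101, differed in 1702 genes, and mice 11 and 101, on separate slides, in 1641. The first principal component held 55.8% of the variance and ran from mice 11 (0.60) and 101 (0.29) through mouse 19 (-0.05) to mice 17 (-0.41) and 40 (-0.44). Mouse 11 had a slide to itself among the 5, so its slide and its tumour cannot be told apart. The same holds where mice 17 and 40 were the upper pair, as for connective tissue, and mice 19 and 101, as for T-cell genes. Each of these pairs shared a slide. Mice 11 and 101 were the males by label and the oldest mice, though the array of mouse 11 did not match its sex label. Age and tumour cannot be told apart in that pair.

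The spread was checked in tumours that had no part in choosing these genes. Of the 100 most variable genes, 95 were also measured on all 5 +/L arrays, where their median SD was 2.06 against 0.45 over the 12737 genes measured on all 10 arrays. Of the 95, 93 lay in the top 10% of SD there. Since 74 of the 100 were immunoglobulin transcripts, these figures rest mostly on them. Named genes differed, with an SD in the +/L tumours of 0.80 for Mmp3 and 2.59 for Ncan, against 3.26 and 2.97 in the +/+ tumours. The 100 least variable genes had a median SD of 0.29 in the +/L tumours.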

How the data were processed

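Per the labels, total RNA of 10 lymphomas was measured on 10 single-colour arrays, and the 5 with the genotype label +/+ are described. Per the file headers, the authors obtained the intensity of each spot from the scans with Feature Extraction 10.5.1.1 of Agilent, with probe positions in build mm9, and the processed signal had undergone spatial and multiplicative detrending. The flag for spots well above background was made by the same software. The deposited value table holds log2 values that the authors computed; every one of the 5 columns used was closest to the scanner values of its own array, the column medians were 6.96 to 6.97, and deviations from the probe mean correlated at 0.992 to 0.995 with normexp and quantile-normalised values. How its background was corrected is not stated in the labels or headers.

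From the 45018 spots of an array, 43379 were not controls (41174 probes); spots with an outlier flag were left out, saturation affected 0 spots, and repeated spots of a probe were averaged. Each value is the log2 of the processed signal over its 75th percentile on that array. A gene was represented by its probe with the highest mean. Names were updated through a RefSeq gene table (25097 probes by accession, 6333 by symbol, 1640 by synonym, 8104 unchanged). Exon and UTR annotation was not used here. Spread is the SD over the 5 tumours, with no test, since 1 array per tumour leaves 1 group. A bound for a gene dim on some arrays is its bright reading over the higher of each other reading and that array's lowest value well above background.

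By the file headers, mice 40 and 17 shared slide 1, mouse 11 was on slide 2, and mice 101 and 19 shared slide 3; the description label gives another slide for mouse 17. The +/L arrays served only for their own detection and SD.

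The tumours, gene lists and rules were chosen with earlier results of these data known. Named were the 20 brightest genes, the 25 with the largest SD, per tumour the 5 furthest above and 3 furthest below the others and the 5 brightest seen on that array alone, the 5 steadiest, and members of 40 gene lists. Rearranging receptor segments were counted as groups; the segments named, Rn18s and X87228 were chosen after their values were seen. Alternatives were normexp correction (offset 50) with quantile normalization in limma 3.58.1 under R 4.3.3, another scaling, the mean of a gene's probes, the authors' table, other filters and measures of spread, and leaving out each tumour. Python 3.11.15 with numpy 2.4.6 and pandas 2.3.3 was used, and the spread and gap functions were tested on simulated data. Values of some members of the lists are not reported here.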

Additional observations from a re-analysis of the deposited data

Results flagged for a closer look

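A tumour was looked at again where its gap to the nearest other tumour, as a share of the range of all 5, passed Dixon's 95% critical value. Of 79 values examined (array measures, list scores and the genes named for brightness or SD), 3 did so, where chance gives about 1 in 20. Mmp3 was at -3.69 in mouse 17, far below the other 4. Anxa10 was at 3.27 in mouse 11, far above the others. Cfi was at -4.87 in mouse 17, below the others. All 3 genes had been chosen for a large SD, which favours such gaps, and the genes chosen for their gaps were not examined in this way.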

How the results depend on the processing

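The count of genes not well above background on any array fell from 8815 to 2984 with the less strict flag for positive and significant spots. The 989 genes with an SD of at least 1 became 435 with normexp and quantile normalization, 341 in the authors' deposited table, 1630 when 3 of 5 arrays sufficed and 2694 without a filter. Of the 100 most variable genes, 54 were shared when 3 arrays sufficed, 45 without a filter, and 61 to 92 when a tumour was left out, lowest without mouse 11. Immunoglobulin transcripts among the 100 numbered 49 to 76 when a tumour was left out. Genes at least 2-fold below every other tumour in mouse 11 fell from 406 to 193 with normexp and 169 in the authors' table. The B-cell score of mouse 40 minus mouse 11 fell from 0.37 to 0.19 in the authors' table. The MHC class I score of mouse 101 minus mouse 17 turned to -0.058 with normexp and -0.093 in the authors' table. The causes were not tested, beyond the wider sets of genes under looser filters. Of the other 130 values of main results, which kept their direction, 125 moved by at most 1.5 times. The other 5 were scores that moved further, though by less than the SD between tumours: the B-cell score to 0.24 with normexp and 0.23 with the mean of a gene's probes, the T-cell score from 2.44 (mouse 19 minus mouse 11) to 1.52 (highest minus lowest of the rest) without mouse 19, the neutrophil score (mouse 40 minus mouse 101) from 2.68 to 1.77 and the glycolysis score (mouse 101 minus mouse 17) from 1.52 to 0.93 in the authors' table. All 25 named variable genes kept an SD of at least 1 under every value, scaling and probe alternative, and 40 of 40 named gaps their direction, of which 33 stayed at least 2-fold under every alternative. The alternatives for immunoglobulin counts, pairs and mouse 11 were added after the data were seen. Dim probes limit the counts of missing genes. No paired analysis was possible because the mice carry distinct numbers and form 1 group.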
